A study of Mus musculus with 16 samples.

Results

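The interleukin-1 receptor set is made of 10 mouse genes: Il1r1, Il1rap, Il1rn, Il1b, Il18, Cxcl1, Cxcl2, Nfkbia, Nfkbiz and Tnfaip3. It was drawn from 19505 gene symbols (22206 probe sets) measured on Affymetrix arrays in liver and eWAT, the labels' name for a white adipose tissue. A gene entered by its symbol, and each of the 10 had 1 probe set. The members were chosen by measured values, namely the higher Il1r1 and Cxcl1 levels in Liver F1 than in Liver CT, so the liver values below describe that choice and carry no test.

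All animals were male C57BL/6J mice aged 14 weeks whose mothers were control females, and the groups differed in the father and the tissue. CT offspring came from fathers kept on chow and F1 offspring from fathers made obese by a high-fat diet (45% lipids), in both cases for 12 weeks from the age of 8 weeks. Crossing tissue with father gave 4 groups of 4 libraries, which the labels number as biological replicates and which are named here by group and number, such as Liver F1 2. The sources used here do not give the offspring's own diet, the fathers, litters or cages, or whether a liver and an eWAT library came from 1 mouse. P-values set a group difference against the variation between these libraries. Because fathers, litters and cages are not given, the libraries may not be independent units of the father's diet.

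Interleukin-1 alpha and beta are cytokines that bind the receptor Il1r1, which recruits the accessory chain Il1rap and signals through the adaptor Myd88 to the IKK kinases. IKK marks the inhibitor IkB-alpha, encoded by Nfkbia, for destruction and so frees the transcription factor NF-kB. NF-kB switches on chemokine genes such as Cxcl1 and Cxcl2, which draw neutrophils through the receptor Cxcr2, and also its own brakes, among them Nfkbia and Tnfaip3. In liver, both hepatocytes and Kupffer cells, the resident macrophages, respond to interleukin-1.

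The promoter sequences below are shown because they set the members that hold the letters GGAATTTCC, a sequence known to be bound by NF-kB, close to their start apart from those that do not. They come from RefSeq (GRCm38.p6), in windows from 250 bases before to 50 after each annotated start. Of the 10 members 9 had a window. The letters, searched on both strands, were found in 4 of these 9 genes and in 103 of all 27025 genes with a window (0.381%). By windows, these are 4 of the members' 13 and 104 of all 32851 (0.317%). Capitals mark the 9 bases of the match, and each sequence runs 5′ to 3′ on the gene's own strand.
Cxcl1: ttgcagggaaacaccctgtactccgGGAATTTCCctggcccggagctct
Cxcl2: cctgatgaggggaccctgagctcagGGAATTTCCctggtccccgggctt
Nfkbia: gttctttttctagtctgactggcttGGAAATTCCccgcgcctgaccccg
Tnfaip3: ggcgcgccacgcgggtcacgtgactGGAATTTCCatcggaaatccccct

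The Cxcl1 stretch lies at chr5:90891150-90891198 on the plus strand, with the match 70 to 62 bases before the start (first base -70, last base -62). The Cxcl2 stretch lies at chr5:90903778-90903826 on the plus strand, with the match at -96 to -88. The Nfkbia stretch lies at chr12:55492653-55492701 on the minus strand, where the match at -29 to -21 reads in the opposite direction to the gene. The Tnfaip3 stretch lies at chr10:19015411-19015459 on the minus strand, with the match at -24 to -16. The same letters with 1 more G in front, a form that contains the shorter one, were present in Cxcl1, Cxcl2 and Nfkbia and in 0.0883% of all windows. The NF-kB consensus was searched separately and was present in 4.51% of windows. In Cxcl1, Cxcl2 and Nfkbia its match covered the capitals. In Tnfaip3 it did not: the consensus matched at -125 to -116 and, in the lower-case end of the printed stretch, at -12 to -3. Il1r1 held a consensus match at -232 to -223. A match is a description of the letters and not evidence that a factor binds there.

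Several libraries stood apart in transcripts of other tissues. The median of 9 measured exocrine pancreas markers was 12.13 in Liver F1 4 and 3.78 to 5.16 in the other liver libraries. The skeletal muscle median was 4.85 in Liver F1 1 and 4.83 in Liver F1 2, against 3.79 to 3.96 elsewhere in liver. Both were low values, below the median of all probe sets in those libraries (5.23 and 5.22). The muscle markers were not alike. Myh1 reached 5.69 in Liver F1 1 and at most 3.91 in CT, whereas Ckm was at 5.51 to 5.82 in F1 and 5.36 to 6.22 in CT. Of the 6 kept muscle markers 5 had a higher and 1 a lower F1 mean, with 0 called. The hepatocyte median in eWAT ran from 7.41 to 14.30 in CT and from 11.60 to 15.76 in F1, and Svs2, a seminal vesicle gene chosen after its values were seen, was at 16.22 in eWAT F1 1 and at most 4.88 in the other eWAT libraries. The defining markers of each labelled tissue were bright: the hepatocyte median was 19.80 to 19.92 across liver libraries and the adipocyte median 17.55 to 17.90 across eWAT libraries. All values are log2 expression, and a difference of 1 is a factor of 2.

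In liver, the receptor chain Il1r1 was at 11.91, 11.54, 12.11 and 12.68 in Liver CT 1 to 4 and at 13.65, 14.36, 14.04 and 14.02 in Liver F1 1 to 4. The groups did not overlap, and the lowest F1 library stood well above the highest CT library. The means were 12.06 ± 0.48 and 14.02 ± 0.29 (SD, n = 4), and F1 exceeded CT by 1.96 ± 0.25 (SE of the fit), a 3.88-fold difference. With 1 library left out at a time the difference was 1.78 to 2.16. Without Liver F1 1 and Liver F1 2, the libraries with the higher muscle medians, it was 1.97.

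The accessory chain Il1rap, which the receptor needs to signal, showed no such gap. It was at 13.03, 12.54, 12.93 and 13.14 in CT and at 13.09, 12.80, 12.91 and 12.91 in F1. Every F1 library lay inside the CT range, and the means differed by 0.02 ± 0.17. The 2 chains of the same receptor had very different F1 minus CT values in the same libraries. Il1r1 was chosen for its difference in this contrast, so nothing is read from the gap between the chains.

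The chemokine Cxcl1 was at 5.57, 5.69, 5.67 and 4.73 in Liver CT and at 7.68, 9.02, 7.85 and 7.22 in Liver F1. Again no F1 library reached down to the CT range, and Liver F1 2 was the highest. The difference was 2.53 ± 0.37 on the log2 scale, or 5.77-fold. It was 2.17 without Liver F1 2, 2.77 without Liver F1 4 and 2.12 without both libraries with the higher muscle medians. Its neighbour Cxcl2, a second neutrophil chemokine with the same promoter letters, was dim in liver. Cxcl2 was at 3.48, 3.41, 3.36 and 3.54 in CT and at 3.63, 3.43, 3.54 and 4.05 in F1. It fell below the 25th percentile of the library in all 4 CT and in 3 of the 4 F1 libraries, so it did not pass the filter on dim genes and its difference of 0.21 ± 0.15 was measured near the bottom of the scale.

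**Figure D1:**
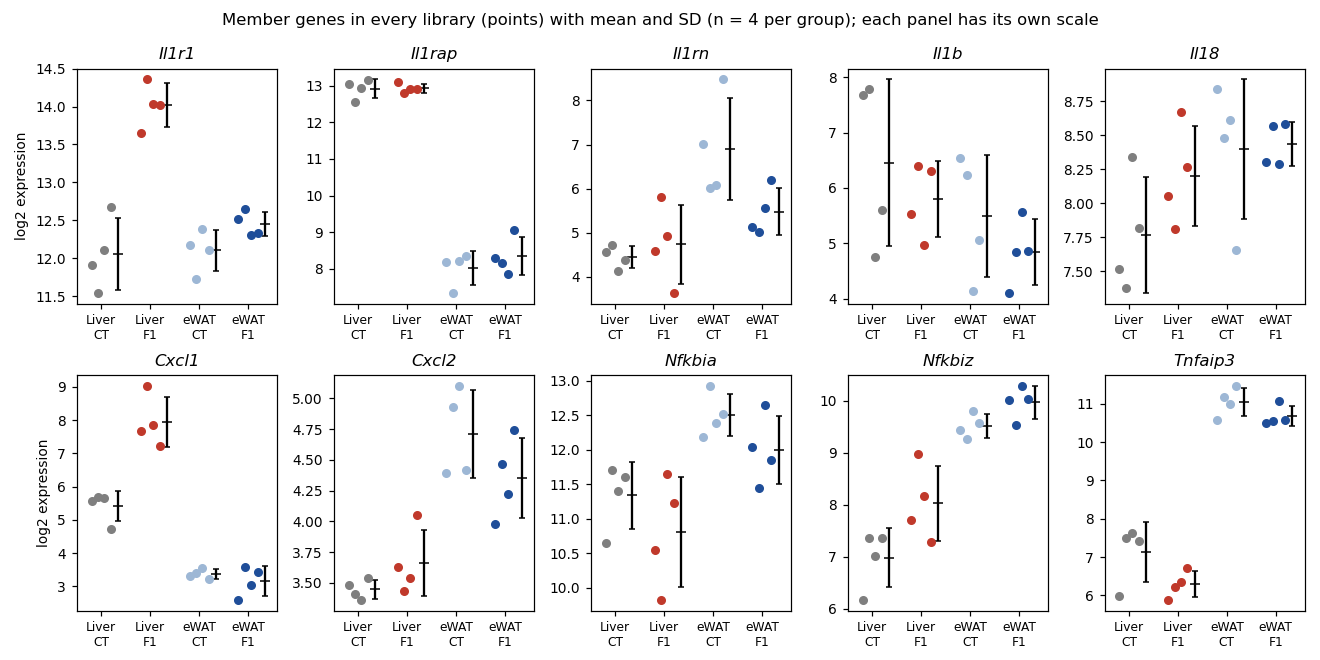
Log2 expression of the 10 genes in every library (points, replicate 1 to 4 from left to right within a group), with the mean and SD of each group of 4 (black); every panel has its own vertical scale. Il1r1 and Cxcl1 are the genes whose Liver F1 points all lie above the Liver CT points, and Cxcl1 in eWAT sits between 2.59 and 3.57 in all 8 libraries.

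The ligands and their antagonist lay at overlapping values in liver. Il1b, the cytokine released mainly by activated macrophages, was at 7.67, 7.78, 4.76 and 5.61 in CT and at 5.53, 6.40, 4.96 and 6.31 in F1. Its CT libraries split widely, with CT 1 and CT 2 above every F1 library, and the difference was -0.65 ± 0.65, no larger than its error. Il18, a related cytokine matured by the same protease, was at 7.52, 7.38, 8.34 and 7.82 in CT and at 8.05, 7.81, 8.67 and 8.27 in F1, with 1 F1 library above all CT libraries and a difference of 0.43 ± 0.25. Il1rn, the natural antagonist that occupies Il1r1 without signalling, was at 4.56, 4.73, 4.13 and 4.39 in CT and at 4.59, 5.81, 4.92 and 3.63 in F1. The F1 libraries of Il1rn held both the highest and the lowest value of the 8, and its mean difference of 0.28 ± 0.38 turned to -0.07 without Liver F1 2.

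The regulators of NF-kB did not share a direction. Nfkbiz, an IkB-like nuclear protein that helps NF-kB activate a subset of its targets, was at 6.17, 7.37, 7.01 and 7.37 in CT and at 7.70, 8.97, 8.17 and 7.28 in F1. Of its 4 F1 libraries 3 exceeded every CT library, the exception being Liver F1 4, and the difference was 1.05 ± 0.38, or 2.07-fold. It was 0.74 without Liver F1 2 and 0.75 without both libraries with the higher muscle medians.

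Nfkbia, the cytoplasmic inhibitor, was at 10.64, 11.70, 11.40 and 11.60 in CT and at 10.54, 9.82, 11.65 and 11.22 in F1. Here Liver F1 1 and Liver F1 2 were below every CT library. The difference of -0.53 ± 0.38 turned to 0.10 when those libraries, which also had the higher muscle medians, were left out. The part of the muscle transcripts in this value was not tested. Tnfaip3, which encodes the ubiquitin-editing inhibitor A20, was at 5.98, 7.51, 7.64 and 7.43 in CT and at 5.88, 6.21, 6.36 and 6.71 in F1. All F1 libraries were below CT 2, CT 3 and CT 4, but CT 1 lay within the F1 range, and the mean difference was -0.85 ± 0.35.

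Among the 9 members that passed the filter in liver, 6 had a higher and 3 a lower F1 mean, with a median difference of 0.28. Over all 14772 genes kept, 49.6% had a higher F1 mean and the median was 0. In all, 2 of the 10 genes (Il1r1 and Cxcl1) lay above CT without overlap, 0 lay below and 8 overlapped. Over all kept genes, 2.68% were above and 2.68% below without overlap, 5.36% in all. Since Il1r1 and Cxcl1 were chosen for this contrast, nothing is read from that count. In the fit over all genes, limma called 23 of the 14772 (0.156%) at an adjusted p under 0.05, and this number was 7 without Liver CT 2 or without Liver F1 3.

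The libraries did not rank alike across the set. Liver F1 2 held the highest F1 value for 5 members (Il1r1, Il1rn, Il1b, Cxcl1 and Nfkbiz) and the lowest for 4 (Il1rap, Il18, Cxcl2 and Nfkbia). Over the 8 liver libraries Il1r1 and Cxcl1 had a Pearson r of 0.86 and a Spearman rho of 0.76, which includes the gap between the groups. After each group's mean was subtracted, r was -0.08. Within CT, for example, Liver CT 4 was the highest library for Il1r1 and the lowest for Cxcl1.

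Markers of other cell types were read beside these differences. The median of the 13 measured macrophage and Kupffer markers was 9.03 to 9.78 in CT and 9.20 to 9.39 in F1, and 9 of 13 kept markers had a higher F1 mean, with 0 called. One of them, the Kupffer cell lectin Clec4f, named after its values were seen, was at 9.40 to 10.06 in CT and at 10.17 to 10.75 in F1. Other markers of the list overlapped between the groups. Vsig4 was at 8.45 to 9.22 in CT and 8.81 to 9.61 in F1, and Cd5l at 11.23 to 12.95 and 11.94 to 12.56. Timd4 was at 6.05 to 7.69 in CT and 6.18 to 6.94 in F1, and Marco at 5.76 to 10.76 and 5.23 to 6.41. Adgre1 was at 8.31 to 10.94 in CT (median 8.42) and 8.68 to 9.68 in F1. Csf1r was at 11.54 to 12.80 in CT (median 11.625) and 12.01 to 12.64 in F1. The highest CT value of Cd5l, Timd4, Marco, Adgre1 and Csf1r was that of Liver CT 2. Its macrophage marker median of 9.78 was also the highest in CT. For Clec4f the highest CT library was Liver CT 3 and for Vsig4 Liver CT 4. The part of Kupffer cell transcripts in the liver differences was not tested. For neutrophils, the cells that Cxcl1 attracts, the median of 11 measured markers was 3.63 to 4.13 in CT and 3.66 to 4 in F1, near the bottom of the scale. S100a8, an abundant neutrophil transcript, was at 3.63 to 4.02 in CT and 3.44 to 4.03 in F1. In whole tissue, fewer cells of a type and less RNA per cell cannot be told apart.

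The rest of the pathway was taken from 8 lists of 93 genes, 87 of them on the array. Besides the members, 64 genes passed the filter in liver, and limma called 0 of them, with 32 higher and 32 lower in F1. At an unadjusted p under 0.05 there were 7 (10.9%), against 9.12% of all kept genes. The smallest adjusted p was 0.187.

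That value belonged to Lcn2, which encodes lipocalin 2, a secreted protein of the acute-phase response that binds bacterial iron carriers. Lcn2 was at 4.71, 5.58, 4.91 and 5.46 in Liver CT and at 7.68, 7.33, 11.75 and 12.62 in Liver F1. All F1 libraries were above CT, with Liver F1 3 and F1 4 much higher than the others, and the difference was 4.68 ± 1.08 (adjusted p = 0.187, limma). Liver F1 4 is also the library with pancreas transcripts, whose part was not tested. Saa3, another acute-phase gene, was 1.07 ± 0.30 higher in F1 without overlap (adjusted p = 0.277). Bcl3, an IkB-like partner of NF-kB subunits, was at 10.30, 9.79, 10.06 and 9.38 in CT and at 10.62, 11.07, 10.52 and 10.71 in F1, a difference of 0.85 ± 0.22 without overlap that did not pass (adjusted p = 0.244, limma).

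In the other direction, Ikbkg, the regulatory subunit of IKK, was at 10.18, 10.09, 10.25 and 10.47 in Liver CT and at 9.85, 9.64, 9.18 and 9.96 in Liver F1. Its groups did not overlap, and its difference of -0.59 ± 0.19 did not pass (adjusted p = 0.388, limma). The list of signalling genes from the receptor to IKK includes IKK subunits and inhibitors of the pathway. Of its 17 genes 14 were on the array, without Irak1, Irak4 and Chuk. Of these 14, 8 had a higher and 6 a lower F1 mean, with a median of 0.08. Myd88 differed by 0.52 ± 0.34 (adjusted p = 0.705). The 4 measured NF-kB subunits had 1 higher and 3 lower means, from -0.42 for Rel to 0.10 for Rela.

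The 4 other receptors of the family that were kept differed by -0.20 to 0.01, and limma called 0 of them. These include Il1r2, a decoy receptor that binds interleukin-1 without signalling, at -0.16 ± 0.25 and Sigirr, an inhibitory receptor, at 0.01 ± 0.30. Of the remaining ligands, Il1a differed by -0.38 ± 0.41 and Il18bp, which neutralises Il18, by -0.22 ± 0.20. Cxcl3, the chemokine most similar in function to Cxcl2, differed by -0.14 ± 0.15. Its promoter window also held GGAATTTCC. Outside the members, 55 kept genes with GGAATTTCC in the promoter had a median liver difference of -0.04, with 25 higher and 0 called, and 3.64% passed an unadjusted p under 0.05 against 9.12% of all genes.

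**Figure D2:**
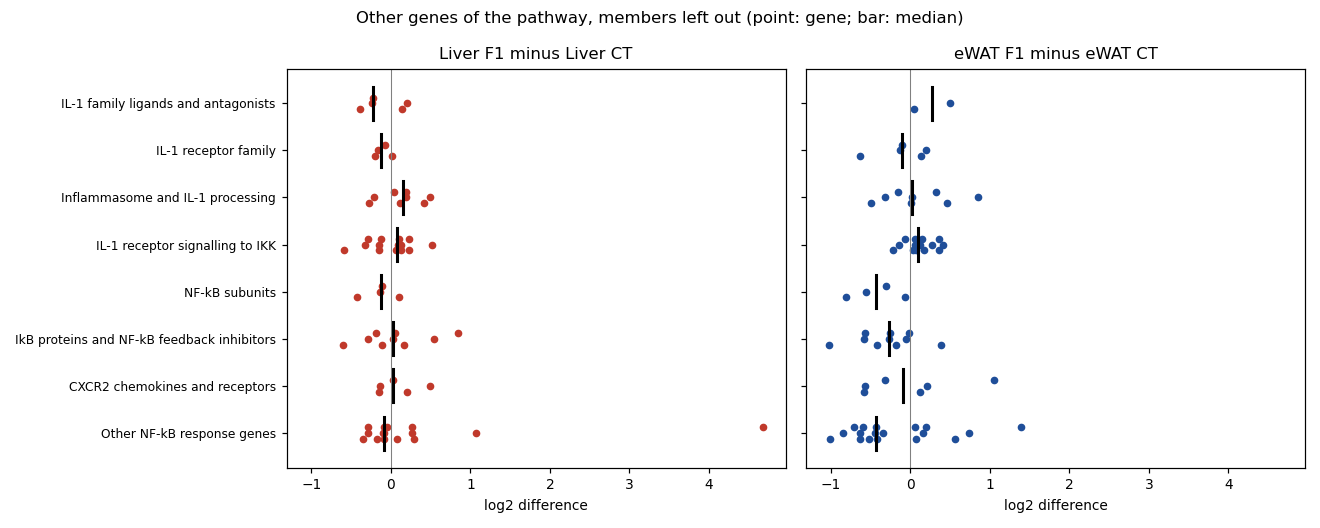
Log2 difference, F1 minus CT, of the kept pathway genes other than the members (points) in the 8 lists, in liver (left) and eWAT (right); black bars are list medians. The liver point at 4.68 is Lcn2, and in eWAT the 4 NF-kB subunits all lie below 0; limma called 0 of the points in either tissue.

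The kept genes closest to Il1r1 over the 8 liver libraries, by Pearson r, were Pim1 (r = 0.98), Calr, R3hdm1, Ifnar2 and Sec14l4 (r = 0.97 for the first 3 of these and 0.96 for Sec14l4). Those closest to Cxcl1 were Slc37a1 (r = 0.99), Serpinf2, Cdk5rap1, Champ1 and Cherp (r = 0.97 to 0.96). These values are descriptions of 8 libraries that include the gap between groups. With group means removed, r with Cxcl1 was 0.97 for Slc37a1 and 0.76 to 0.98 over the 5 genes. With Il1r1 it was 0.75 for Pim1 and 0.65 to 0.88 over the 5 genes. The genes were picked by r in these same libraries, so these values are not a separate check. Pim1 encodes a kinase, Slc37a1 a sugar-phosphate transporter.

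The stated reason for the choice was the liver contrast, and eWAT has libraries of its own, so the members were tested there. Earlier results of these data were known when members and pathway lists were chosen, so the eWAT tests may not be independent of the choice. Limma called 0 of the 9 members that passed the filter, as it called 0 of all 14766 genes kept (0%). At an unadjusted p under 0.05 there were 2 members, Il1rn and Nfkbiz, against 1475 genes (9.99%) in all. All 10 genes overlapped between the groups, where 5.92% of all kept genes did not. The kept members had 4 higher and 5 lower F1 means, with a median of -0.36, and 49.5% of all kept genes had a higher mean.

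Il1r1 was at 12.18, 11.73, 12.39 and 12.11 in eWAT CT and at 12.52, 12.65, 12.31 and 12.33 in eWAT F1. Of its F1 libraries 2 exceeded every CT library. The difference was 0.35 ± 0.18, with a 95% interval of -0.06 to 0.76 (adjusted p = 0.548, limma). Whether this differs from the liver value was not tested, because the liver value chose the gene. Cxcl1 was dim in eWAT, at 3.32, 3.40, 3.55 and 3.21 in CT and at 2.59, 3.57, 3.05 and 3.43 in F1. In each group 3 of 4 libraries were below the library's 25th percentile, so Cxcl1 did not pass the filter and its difference of -0.21 was not tested.

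Il1rn, the antagonist, had the largest mean difference of the set in eWAT. It was at 7.01, 6.02, 6.08 and 8.48 in CT and at 5.14, 5.02, 5.56 and 6.19 in F1. Of its F1 libraries 3 were below every CT library, the exception being eWAT F1 4. The difference was -1.42 ± 0.52, with a 95% interval of -2.60 to -0.24 before correction (adjusted p = 0.42, limma), and it was -0.89 without eWAT CT 4. The skeletal muscle marker median was 5.66 in eWAT CT 1 and 5.64 in eWAT CT 4, the libraries with the highest Il1rn, and 3.69 to 4.37 in the other 6. Both medians were below the median of all probe sets in those libraries (6.39 and 6.56). The muscle markers were not alike. Myh4 reached 7.83 in eWAT CT 4 and at most 4.66 in F1. Acta1 reached 10.71 in eWAT CT 2 and 11.04 in eWAT F1 4. Of the 7 kept muscle markers 1 had a higher and 6 a lower F1 mean, with 0 called. The part of muscle transcripts in the Il1rn difference was not tested.

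The macrophage marker median was 11.77, 12.25, 11.47 and 11.71 in eWAT CT and 11.05, 11.12, 11.27 and 11.83 in eWAT F1. All 12 kept macrophage markers had a lower F1 mean and 0 were called. Within F1, eWAT F1 4 was the highest library for both the macrophage median and Il1rn. Within CT the order differed, since eWAT CT 2 had the highest macrophage median and the lowest Il1rn. The part of macrophage transcripts in the Il1rn difference was not tested.

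Il1b, also a macrophage product, was at 6.54, 6.24, 4.13 and 5.06 in CT and at 4.10, 4.85, 5.57 and 4.86 in F1. The groups overlapped widely, and the difference of -0.65 ± 0.52 (adjusted p = 0.697, limma) was -0.12 with the hepatocyte marker level as a covariate. Il18 was at 8.84, 8.48, 8.61 and 7.66 in CT and at 8.30, 8.57, 8.29 and 8.58 in F1. With a difference of 0.04 ± 0.25 it had the smallest value of the set. Its sign turned under 5 of the alternatives tried.

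Nfkbiz had higher F1 means in both tissues. In eWAT it was at 9.43, 9.27, 9.80 and 9.57 in CT and at 10.01, 9.54, 10.28 and 10.04 in F1. Of the F1 libraries 3 exceeded every CT library, and the difference was 0.45 ± 0.20, with a 95% interval of 0.00 to 0.90 (adjusted p = 0.498, limma). Nfkbia was at 12.19, 12.92, 12.38 and 12.52 in CT and at 12.04, 11.45, 12.64 and 11.85 in F1, with 3 F1 libraries below every CT library and a difference of -0.51 ± 0.27 (adjusted p = 0.554). Tnfaip3 was at 10.58, 11.18, 11.00 and 11.46 in CT and at 10.49, 10.56, 11.06 and 10.59 in F1, with a difference of -0.38 ± 0.22 (adjusted p = 0.596). None of these 3 regulators passed the correction.

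Cxcl2 passed the filter in eWAT, at 4.39, 4.93, 5.10 and 4.42 in CT and at 3.98, 4.47, 4.22 and 4.74 in F1, and differed by -0.36 ± 0.23 (adjusted p = 0.635). Il1rap was at 8.20, 7.34, 8.21 and 8.36 in CT and at 8.30, 8.16, 7.87 and 9.07 in F1. Its lowest value was in eWAT CT 2, the library with the lowest hepatocyte median of 7.41, and its highest in eWAT F1 4, the library with the highest hepatocyte median of 15.76. The difference of 0.32 ± 0.31 became 0.04 with the hepatocyte marker level as a covariate (adjusted p = 0.739 and 0.974, limma).

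**Figure D3:**
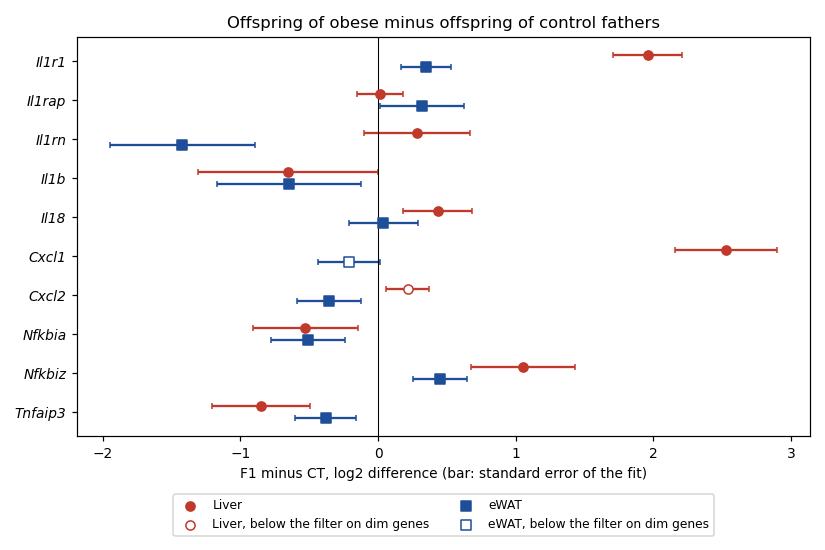
F1 minus CT log2 difference of each gene in liver (circles) and eWAT (squares), with the standard error of the fit as bars (4 libraries per group); open symbols did not pass the filter on dim genes. Il1r1 at 1.96 and Cxcl1 at 2.53 stand out in liver, and Il1rn at -1.42 lies farthest below 0 in eWAT.

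As a description, of the 8 members kept in both tissues, 7 had F1 differences of the same sign: Il1r1, Il1rap, Il18 and Nfkbiz were higher in both, and Il1b, Nfkbia and Tnfaip3 lower in both. Il1rn was the exception. The liver sign of Il1r1 was fixed by the choice of members, and without it 6 of 7 shared a sign (85.7%). Over all 13474 genes kept in both tissues the share was 50.4%. Differences of 0.02 for Il1rap in liver and 0.04 for Il18 in eWAT are among those counted, both far inside their errors. Several of these signs were not stable. The liver difference of Il1rap was -0.0056 after quantile normalization and -0.0175 after centring. That of Nfkbia was 0.10 without both libraries with the higher muscle medians. In eWAT the sign of Il18 turned under 5 of the alternatives.

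The other 67 kept pathway genes in eWAT divided into 31 higher and 36 lower means, with 0 called by limma, and the smallest adjusted p was 0.362. At an unadjusted p under 0.05 there were 14 (20.9%), 2 higher and 12 lower, against 9.99% of all kept genes. Of the 10 kept IkB proteins and feedback inhibitors outside the set 9 had lower means, with a median of -0.26, and of the 4 NF-kB subunits 4 had lower means, with a median of -0.43, against 0 (-0.0025) over all genes.

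Tnip3, a partner of A20, was at 8.33, 8.48, 8.02 and 8.53 in eWAT CT and at 7.09, 6.83, 7.54 and 7.79 in eWAT F1. The groups did not overlap, and the difference was -1.03 ± 0.23 (adjusted p = 0.362, limma). Rel, an NF-kB subunit, differed by -0.81 ± 0.23 and Nfkb2, another subunit, by -0.56 ± 0.17 (adjusted p = 0.386 and 0.389). Ccl2, a chemokine that draws monocytes, was at 7.32, 7.43, 7.84 and 7.30 in CT and at 5.87, 6.58, 7.14 and 6.91 in F1. The groups did not overlap, and the difference was -0.85 ± 0.28 (adjusted p = 0.4), beside the lower macrophage median given above.

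Some pathway genes had higher eWAT F1 means. Nlrp3, the inflammasome sensor, differed by 0.85 ± 0.38 (adjusted p = 0.505), and Il33, an interleukin-1 family cytokine of stromal cells, by 0.51 ± 0.22 (adjusted p = 0.501). Bcl3 had opposite signs in the tissues, at 0.85 in liver and -0.58 ± 0.28 in eWAT (adjusted p = 0.528). None of these values passed the test. Of 49 kept genes outside the set with GGAATTTCC in the promoter, 25 were higher in eWAT F1, with a median of 0.03 and 0 called. At an unadjusted p under 0.05 there were 9 of these (18.4%), against 9.99% of all kept genes.

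Where the genes are expressed was compared between Liver CT and eWAT CT, which leaves the F1 libraries out. The same Liver CT values were the baseline in the choice of Il1r1 and Cxcl1. The tissue tests of these genes are therefore not independent of that choice. The deposited values appeared to be scaled separately in each tissue. When the values of a pair of libraries were each sorted, they lay at most 0.12 to 0.20 apart within liver and 0.15 to 0.53 within eWAT, but 1.39 to 1.71 apart between tissues. On the deposited scale the median gene was 0.80 lower in liver, a shift that became 0.02 after quantile normalization over the 8 libraries and 0.56 in the other direction after centring each library on its median. Limma called 11248 of 15116 genes (74.4%), 24.8% of them higher in liver, and that share was 49.4% and 66.7% under the other scalings.

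Of the 10 members, 7 were called, 2 higher and 5 lower in liver, where 18.4% of all genes were called higher and 56% lower. Il1rap was higher in liver by 4.88 ± 0.25, a 29.5-fold difference (adjusted p = 2.17e-08, limma), and the 4 liver values of 12.54 to 13.14 lay far above the eWAT values of 7.34 to 8.36. Cxcl1 was higher in liver by 2.04 ± 0.23, or 4.13-fold (adjusted p = 1.31e-05, limma). In eWAT CT 3 of its 4 libraries were below the library's 25th percentile, so Cxcl1 passed this filter through its liver values. Its fold was measured against values near the bottom of the scale. Il1rap and Cxcl1 both kept direction and call under the other scalings, at 5.78 and 6.23 for Il1rap and 2.44 and 3.40 for Cxcl1.

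Tnfaip3 was lower in liver by 15.1-fold (-3.91 ± 0.36, adjusted p = 2.46e-06) and Nfkbiz by 5.81-fold (-2.54 ± 0.27, adjusted p = 8.62e-06). These regulators too kept direction and call under the other scalings, where Tnfaip3 differed by -2.73 and -2.56 and Nfkbiz by -1.24 and -1.19. The remaining 3 each lost the call under at least 1 other scaling. Il1rn differed by -2.44 ± 0.47 (adjusted p = 0.000748), but with centring the difference was -1.09 (adjusted p = 0.0569).

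Nfkbia differed by -1.17 ± 0.26 as deposited (adjusted p = 0.0019), by -0.44 after quantile normalization and by 0.18 after centring (adjusted p = 0.158 and 0.539). Cxcl2 differed by -1.26 ± 0.20 (adjusted p = 0.000164), and by 0.09 after centring (adjusted p = 0.696). It was below the library's 25th percentile in all 4 Liver CT libraries, so it passed this filter through its eWAT values. Whether Nfkbia and Cxcl2 differ between the tissues therefore rests on the scaling, and their sign turned. For Il1rn the call rests on the scaling, but its difference was negative under each of them.

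The remaining 3 members were not called on the deposited scale. Il1r1 had nearly the same deposited level in both tissues (-0.04 ± 0.25, adjusted p = 0.886), with liver at 11.54 to 12.68 and eWAT at 11.73 to 12.39. Under the other scalings it was higher in liver by 0.68 and 1.31 (adjusted p = 0.0314 and 0.000831). Il1b differed by 0.96 ± 0.73 (adjusted p = 0.254), by 1.96 after quantile normalization and by 2.31 after centring (adjusted p = 0.0265 and 0.0145). Il18 differed by -0.63 ± 0.29 (adjusted p = 0.0705), by 0.70 after quantile normalization and by 0.72 after centring (adjusted p = 0.0553 and 0.0424), so with centring it was called in the opposite direction to its deposited difference.

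**Figure D4:**
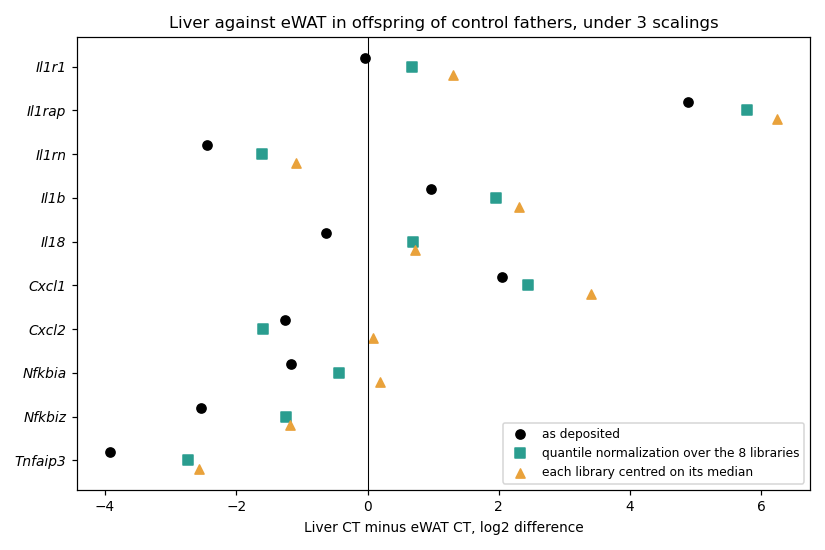
Liver CT minus eWAT CT log2 difference of each gene under the deposited scaling (circles), quantile normalization over the 8 libraries (squares) and centring of each library on its median (triangles). Il1rap and Cxcl1 lie right of 0 and Tnfaip3, Nfkbiz and Il1rn left of 0 under all 3, while Il1r1, Il18, Cxcl2 and Nfkbia cross it.

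Ordered by group mean on the deposited scale, Il1r1 was highest in Liver F1 (14.02), followed by eWAT F1 (12.45), eWAT CT (12.10) and Liver CT (12.06), and the last 3 overlapped one another. Cxcl1 was highest in Liver F1 (7.94), followed by Liver CT (5.42), eWAT CT (3.37) and eWAT F1 (3.16), with overlap only between the eWAT groups. Nfkbiz ran from eWAT F1 (9.97) and eWAT CT (9.52), which overlapped, through Liver F1 (8.03) to Liver CT (6.98), which overlapped as well. The tissue gap of Nfkbiz exceeded its F1 minus CT difference in either tissue on this scale.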

How the data were processed

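The deposited table holds log2 expression values that the authors made by RMA, per the submitters' processing notes, which name Transcriptome Analysis Console 4.0. RNA came from frozen tissue and was labelled with a whole-transcript kit, per the labels' protocols. Probe sets were named through the platform annotation: 19572 of 22206 had 1 symbol and 2634 had none. For the 55 symbols with several probe sets the brightest was kept. Separate limma fits of 8 libraries each (lmFit and eBayes; version 3.58.1, R 4.3.3) compared F1 with CT in each tissue and Liver CT with eWAT CT. Genes were kept where their mean reached the mean 25th percentile of the libraries. P-values were adjusted by Benjamini-Hochberg over all kept genes, with a call at an adjusted p under 0.05. The fit was tested on simulated data. Arrays have no read depth, and 4 libraries per group limit the precision.

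The members and lists were chosen with earlier results of these data known. Named genes were all members, up to 4 others per list by smallest p in liver and 2 in eWAT, and the 5 genes most correlated with Il1r1 and with Cxcl1. Alternatives were other filters, variance models, weights, scalings, probe set means, a joint fit, a replicate block and leaving out libraries.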

Additional observations from a re-analysis of the deposited data

Results flagged for a closer look

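Each group of 4 libraries was checked, for each of the 10 genes, for a library whose gap to its nearest neighbour was a larger share of the group's range than the 95% critical value of Dixon's test. This marked 3 of 40 groups, where chance marks about 1 in 20. Cxcl1 in Liver CT 4 was at 4.73, below the other CT libraries. Tnfaip3 in Liver CT 1 was at 5.98, the only CT library within the F1 range. Il1rap in eWAT CT 2 was at 7.34, in the library with the lowest hepatocyte marker median.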

How the results depend on the processing

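The number of genes called in liver, 23, was 74 with a trended and robust variance model, 51 in a fit over all 16 libraries and 35 with libraries centred on their median. It was 9 without both libraries with the higher muscle medians, an alternative added after seeing the data. It was 7 to 24 with 1 library left out. In eWAT the count of 0 became 25 in the fit over all 16 libraries and was 0 to 1 with 1 library left out, 1 without eWAT CT 4 or eWAT F1 4. With the replicate block the liver count was 6, the eWAT count 0 and the tissue count 11128. The block also brought Il1b between tissues past the threshold (0.96, adjusted p = 0.00538, limma). Same-numbered libraries had deviations correlated at -0.06 to 0.06 between liver groups and -0.31 to 0.21 between eWAT groups, so the numbers were not taken as pairs. Members called between tissues were 4 of the main 7 when only genes at or above the median were kept, where fewer members were tested. The eWAT difference of Il18 was -0.065 with array weights, -0.0037 after centring, and -0.21 to 0.18 with 1 library left out (-0.0075 without eWAT F1 2, -0.01 without eWAT F1 4). Between tissues Il1r1 was 0.68 and 1.31, Il18 0.70 and 0.72, under quantile normalization and centring, and Cxcl2 0.089 and Nfkbia 0.18 under centring. Il1r1 was -0.25 to 0.13 with 1 library left out (0.05 without eWAT CT 3, 0.0075 without Liver CT 1). The cause was not tested. The liver differences of Il1r1 were 1.78 to 2.16 and those of Cxcl1 2.12 to 2.77 over the alternatives run. Other filters, variance models, probe set means, the joint fit and the replicate block cannot change these differences for a gene with 1 probe set. The ranges come from weights, scalings and left-out libraries, and they describe genes chosen for this contrast. No detection flag was used, so dim genes such as Cxcl2 in liver and Cxcl1 in eWAT have little room to show a decrease.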

Other observations

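Il1b had a split among the CT libraries that ran across both tissues. In Liver CT it was at 7.67 and 7.78 in replicates 1 and 2 and at 4.76 and 5.61 in replicates 3 and 4. In eWAT CT it was at 6.54 and 6.24 in replicates 1 and 2 and at 4.13 and 5.06 in replicates 3 and 4. The labels do not say whether libraries with the same number came from the same mouse. Over all genes the same-numbered CT libraries of the 2 tissues had deviations correlated at 0.011 to 0.044. For differently numbered ones the range was -0.041 to 0.019. Whether mice were shared was not tested.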
